A study of Mus musculus with 18 samples.

Results

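The 9 genes Ngp, Camp, Ltf, Lcn2, S100a8, S100a9, Retnlg, Csf3r and Cxcr2 encode neutrophil granule and cytosolic proteins, a secreted neutrophil product and surface receptors of neutrophils. They were chosen by symbol and were read in poly(A) RNA sequencing of mouse mammary gland. All 9 were found among the 23337 gene symbols of the count table. The study compared Cip2a-/- with WT mice of a mixed C57BL/6Jx129 background, Cip2a being an inhibitor of the tumour suppressor phosphatase PP2A. DMBA, a carcinogen that causes mammary and other tumours in mice, was dissolved in oil and given by gavage, 1 mg per dose in 6 weekly doses, to mice aged 12 to 14 weeks at the first dose. Glands were taken from untreated Cip2a-/- and WT mice, from Cip2a-/- and WT mice 2 weeks after the last dose, and from Cip2a-/- and WT mice at an endpoint, when the mouse was killed because of a DMBA-induced tumour in any tissue. The endpoint samples were described as tumour-free gland and lymph nodes as left out of all samples, and each of the 6 groups had 3 libraries. The untreated groups received no gavage, so DMBA and its vehicle cannot be told apart. The labels do not state the age at the endpoint, the sex of the mice, the kind of Cip2a allele or whether glands were pooled. If libraries of a group share a source, the p-values measure only the spread between libraries.

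The libraries held 16121743 to 24586404 counts. Cip2a, the targeted gene, which the table lists under the older symbol C330027C09Rik, had 0 or 1 reads in every Cip2a-/- library and 15 to 126 reads in every WT library. Several libraries stood apart in marker genes of other cell types. WT endpoint replicate 1 had 5835 CPM (counts scaled by library size with edgeR's TMM factors) of the brown fat gene Ucp1 and 4.37 CPM of the epithelial gene Epcam, which lay between 62.9 and 439 CPM in the other 17 libraries. The same gland had the highest summed level of 7 B cell and 8 T cell markers of the 18 glands, 1809 and 737 CPM. Cip2a-/- untreated replicate 3 had 142 CPM of the epidermal gene Krt10, against 1.78 to 10.2 CPM elsewhere. It was second in both lymphocyte lists, with 655 CPM of B cell and 406 CPM of T cell markers, and first of the 18 in 10 monocyte and macrophage markers, with 1492 CPM. The lowest B cell sum was 1.17 CPM, in Cip2a-/- 2-week replicate 1. Lymph nodes were described as left out, and whether node tissue remained in some glands was not tested. Cip2a-/- endpoint replicate 1 had 1656 CPM of the milk gene Csn2. In bulk tissue, fewer cells of a type and less RNA per cell cannot be told apart. The neutrophil surface marker Ly6g was not analysed here.

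Neutrophils arise in the bone marrow and build their granules in sequence. Precursors transcribe primary granule genes such as Mpo and Elane first and secondary granule genes such as Ngp, Camp, Ltf and Lcn2 later. Csf3r encodes the receptor that sustains granulopoiesis, and Cxcr2 the chemokine receptor that directs cells out of the marrow and into tissue. S100a8 and S100a9 form calprotectin, the most abundant cytosolic protein of neutrophils. Some of these genes are also known outside neutrophils: Ltf and Lcn2 in glandular epithelium, where lactoferrin is a milk protein, S100a8 and S100a9 in monocytes and in stressed epidermis, and Csf3r in monocytes.

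Positions are from GENCODE M21 (GRCm38, the same assembly as mm10). Ngp (chr9:110419747-110423012), Camp (chr9:109847379-109849617) and Ltf (chr9:111019271-111042767) share a stretch of chromosome 9. S100a8 (chr3:90668978-90670035) and S100a9 (chr3:90692632-90695721) are neighbours 22.6 kb apart on opposite strands. The others are Lcn2 (chr2:32384633-32388252), Retnlg (chr16:48872621-48874496), Csf3r (chr4:126024550-126044440) and Cxcr2 (chr1:74153989-74161246). Retnlg lies 119.7 kb from Cip2a.

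The promoter windows of 5 genes are shown because Ngp and Camp on chromosome 9 varied together between glands, Ltf, on the same stretch, did not follow them, and S100a8 and S100a9 encode partners of 1 complex whose levels parted in some glands. Each window runs from 250 bases before to 50 bases after the RefSeq start (GRCm38.p6), 5′ to 3′ on the gene's own strand, at chr9:110419558-110419857 (+) for Ngp, chr9:109849407-109849706 (-) for Camp, chr3:90668821-90669120 (+) for S100a8, chr3:90695672-90695971 (-) for S100a9 and chr9:111019042-111019341 (+) for Ltf. Capitals mark matches to TTGCNNAA, a degenerate form of the motif of C/EBP factors, to GAGGAA, a core of the motif of PU.1, and to TATAAA, each on either strand.
Ngp: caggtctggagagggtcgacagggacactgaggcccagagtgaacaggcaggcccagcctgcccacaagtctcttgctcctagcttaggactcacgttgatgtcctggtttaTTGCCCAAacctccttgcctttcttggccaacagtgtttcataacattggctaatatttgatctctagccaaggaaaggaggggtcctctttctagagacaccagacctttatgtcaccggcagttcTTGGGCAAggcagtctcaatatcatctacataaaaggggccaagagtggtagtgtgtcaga
Camp: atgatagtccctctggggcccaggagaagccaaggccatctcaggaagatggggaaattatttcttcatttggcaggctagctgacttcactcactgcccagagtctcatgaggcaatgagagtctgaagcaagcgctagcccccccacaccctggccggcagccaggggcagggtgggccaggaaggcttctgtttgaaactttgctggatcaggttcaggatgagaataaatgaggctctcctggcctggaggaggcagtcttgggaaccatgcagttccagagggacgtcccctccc
S100a8: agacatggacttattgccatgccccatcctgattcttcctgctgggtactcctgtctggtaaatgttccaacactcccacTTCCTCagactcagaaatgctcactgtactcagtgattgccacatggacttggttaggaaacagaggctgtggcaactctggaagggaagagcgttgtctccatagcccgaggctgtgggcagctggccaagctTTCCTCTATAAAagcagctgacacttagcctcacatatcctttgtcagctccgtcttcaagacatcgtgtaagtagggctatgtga
S100a9: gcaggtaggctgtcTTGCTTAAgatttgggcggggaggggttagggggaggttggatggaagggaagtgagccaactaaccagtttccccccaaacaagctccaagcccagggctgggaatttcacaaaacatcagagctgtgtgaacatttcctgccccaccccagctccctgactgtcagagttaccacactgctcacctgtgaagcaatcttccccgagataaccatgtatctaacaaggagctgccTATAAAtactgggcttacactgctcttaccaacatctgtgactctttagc
Ltf: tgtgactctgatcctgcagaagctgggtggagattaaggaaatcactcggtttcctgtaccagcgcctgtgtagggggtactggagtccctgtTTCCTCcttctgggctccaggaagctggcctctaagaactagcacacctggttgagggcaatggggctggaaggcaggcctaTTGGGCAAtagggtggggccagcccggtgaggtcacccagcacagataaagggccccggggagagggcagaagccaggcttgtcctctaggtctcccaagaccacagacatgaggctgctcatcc
C/EBP factors and PU.1 are the transcription factors best known for driving granulocyte genes. Of the 9 genes, 9 had a window, and TTGCNNAA was found in 5 (Ngp, Ltf, Lcn2, S100a9 and Retnlg), against 10.8% of all 32817 windows. GAGGAA was found in 5 (Ltf, Lcn2, S100a8, Csf3r and Cxcr2), against 28.3% of all windows, and TATAAA in 2 (S100a8 and S100a9), against 13.6%. The Ngp window holds TTGCNNAA at -138 on the gene's strand and at -11 on the other strand, counted from the start, and the Ltf window holds it at -75. In S100a8 the match to GAGGAA at -36 directly precedes TATAAA at -30, without shared bases. In S100a9 TATAAA begins at 1, on the annotated start itself. The Camp window holds none of these letter strings. The RefSeq starts used for Ngp, Camp, S100a8 and Ltf lie inside the GENCODE spans given above, not at their ends. Matches, their absence and their positions therefore hold for these windows only.

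The secondary granule genes Ngp and Camp were nearly absent from untreated and 2-week glands and high in 2 endpoint glands, 1 of each genotype. Ngp encodes neutrophilic granule protein, a cystatin-like component of secondary granules. At the endpoint, Ngp had 1.10, 0.645 and 105 CPM in Cip2a-/- glands, replicates 1 to 3, against 5.96, 53.7 and 0.569 CPM in WT glands. At 2 weeks, Ngp had 0.137, 0.339 and 0 CPM in Cip2a-/- glands and 0.0482, 0.0465 and 0.126 CPM in WT glands, which is at most 8 reads in a library. In untreated glands, Ngp had 0.179, 0.165 and 3.76 CPM in Cip2a-/- glands, against 0, 0.335 and 0.222 CPM in WT glands. All 6 endpoint glands lay above all 6 glands at 2 weeks, as did 2.67% of all genes tested. The lowest endpoint gland, WT replicate 3, had 9 reads, and the highest gland at 2 weeks, Cip2a-/- replicate 2, had 8 reads. The untreated gland with 3.76 CPM is the one with high epidermal Krt10 and white cell markers.

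Camp encodes cathelicidin, the precursor of an antimicrobial peptide. At the endpoint, Camp had 0.201, 0.269 and 27.7 CPM in Cip2a-/- glands, against 1.90, 18.1 and 0.126 CPM in WT glands. In the 6 glands at 2 weeks it lay between 0 and 0.212 CPM, and in untreated glands it had 0.0598, 0.055 and 1.85 CPM in Cip2a-/- glands, against 0.0434, 0.167 and 0 CPM in WT glands. The same glands were high as for Ngp, Cip2a-/- endpoint replicate 3 and WT endpoint replicate 2, and these 2 held 96.0% of the Ngp reads and 95.9% of the Camp reads of the 6 endpoint glands.

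Ltf, which encodes the iron-binding protein lactoferrin, was readily read in every gland and followed another order. At the endpoint, Ltf had 299.8, 302 and 235 CPM in Cip2a-/- glands, against 20.0, 104 and 179 CPM in WT glands. At 2 weeks, Ltf had 50.2, 107 and 134 CPM in Cip2a-/- glands, against 205, 82.1 and 72.7 CPM in WT glands. Untreated Cip2a-/- glands had 74.4, 22.8 and 112 CPM, against 63.8, 92.8 and 150 CPM in untreated WT glands. At the endpoint the 3 Cip2a-/- glands were above the 3 WT glands, as were 2.26% of all genes tested. The lowest level was in WT endpoint replicate 1, the gland with little Epcam. The 2 endpoint glands with the highest Ngp held 32.0% of the endpoint Ltf reads.

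Lcn2, which encodes the siderophore-binding protein lipocalin 2, also varied widely within groups. At the endpoint, Lcn2 had 632, 93.6 and 651 CPM in Cip2a-/- glands, against 4.06, 386 and 56.5 CPM in WT glands. At 2 weeks, Lcn2 had 22.4, 63.5 and 40.8 CPM in Cip2a-/- glands, against 201, 38.9 and 46.3 CPM in WT glands. Untreated Cip2a-/- glands had 86.9, 154 and 65.6 CPM, against 88.0, 185 and 201 CPM in untreated WT glands. The groups overlapped at each time, and the lowest level was again in the WT endpoint gland with little Epcam.

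The calprotectin genes were highest in the endpoint glands with high Ngp. At the endpoint, S100a9 had 11.1, 2.47 and 156 CPM in Cip2a-/- glands, against 14.6, 51.2 and 0.758 CPM in WT glands. At 2 weeks, S100a9 had 2.40, 1.44 and 0.464 CPM in Cip2a-/- glands, against 0.0963, 0.558 and 0.883 CPM in WT glands. Untreated Cip2a-/- glands had 1.37, 0.825 and 9.21 CPM, against 1.56, 1.17 and 0.72 CPM in untreated WT glands. WT endpoint replicate 3 stayed within the range of the 2-week glands, and the other 5 endpoint glands were above it.

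S100a8, the partner of S100a9 in calprotectin, had 8.22, 1.67 and 72.0 CPM in Cip2a-/- endpoint glands, against 9.95, 32.3 and 0.316 CPM in WT endpoint glands. At 2 weeks, S100a8 had 1.71, 11.9 and 10.4 CPM in Cip2a-/- glands, against 2.31, 3.02 and 2.40 CPM in WT glands. In untreated glands it had 4.12, 3.58 and 10.2 CPM in Cip2a-/- glands, against 3.90, 3.52 and 7.48 CPM in WT glands. The 2 glands with the highest Ngp exceeded the range of the 2-week glands, and the other 4 endpoint glands did not. They held 85.7% of the endpoint reads of S100a8 and 89.1% of those of S100a9. The 2 Cip2a-/- glands at 2 weeks with 11.9 and 10.4 CPM of S100a8 had 1.44 and 0.464 CPM of S100a9, so the partners parted there.

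Retnlg encodes resistin-like gamma, a small secreted protein that marks mouse neutrophils. At the endpoint, Retnlg had 1.25, 0.86 and 16.8 CPM in Cip2a-/- glands, against 1.96, 2.05 and 0 CPM in WT glands. At 2 weeks, Retnlg had 0.206, 0.339 and 0.0928 CPM in Cip2a-/- glands, against 0.0482, 0.093 and 0.0421 CPM in WT glands. In untreated glands it had 0.12, 0.22 and 0.811 CPM in Cip2a-/- glands, against 0.304, 0.335 and 0.554 CPM in WT glands. WT endpoint replicate 3, with 0 reads, which allows up to 3 reads, was the lowest of the 18 glands, and the other 5 endpoint glands were above all untreated and 2-week glands. The 2 endpoint glands with the highest Ngp held 83.2% of the endpoint Retnlg reads, mostly from the Cip2a-/- gland.

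Csf3r, the receptor for granulocyte colony-stimulating factor, varied little outside a few glands. At the endpoint, Csf3r had 12.7, 3.01 and 18.2 CPM in Cip2a-/- glands, against 14.9, 5.46 and 8.53 CPM in WT glands. At 2 weeks, Csf3r had 7.06, 7.54 and 9.14 CPM in Cip2a-/- glands, against 7.27, 6.09 and 7.36 CPM in WT glands. In untreated glands it had 9.44, 7.76 and 30.5 CPM in Cip2a-/- glands, against 10.2, 9.88 and 8.92 CPM in WT glands. The highest level was not at the endpoint but in the untreated Cip2a-/- gland with high Krt10 and the most monocyte and macrophage marker RNA, and WT endpoint replicate 2, second in Ngp, was below all but 1 of the other glands in Csf3r.

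Cxcr2, the receptor for the chemokines Cxcl1, Cxcl2 and Cxcl5, had 1.20, 0.322 and 2.77 CPM in Cip2a-/- endpoint glands, against 12.2, 0.503 and 0.0632 CPM in WT endpoint glands. At 2 weeks, Cxcr2 had 0.548, 1.06 and 0.418 CPM in Cip2a-/- glands, against 0.0482, 0.0465 and 0.126 CPM in WT glands. In untreated glands it had 1.08, 0.055 and 2.26 CPM in Cip2a-/- glands, against 0.737, 0.279 and 0.111 CPM in WT glands. The highest level, 193 of the 287 endpoint reads, was in WT endpoint replicate 1, the gland with 5835 CPM of Ucp1 and the most B and T cell marker RNA, and WT endpoint replicate 2 was low. The 3 Cip2a-/- glands at 2 weeks were above the 3 WT glands, at 25 reads or fewer, as were 6.76% of all genes tested.

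**Figure D1:**
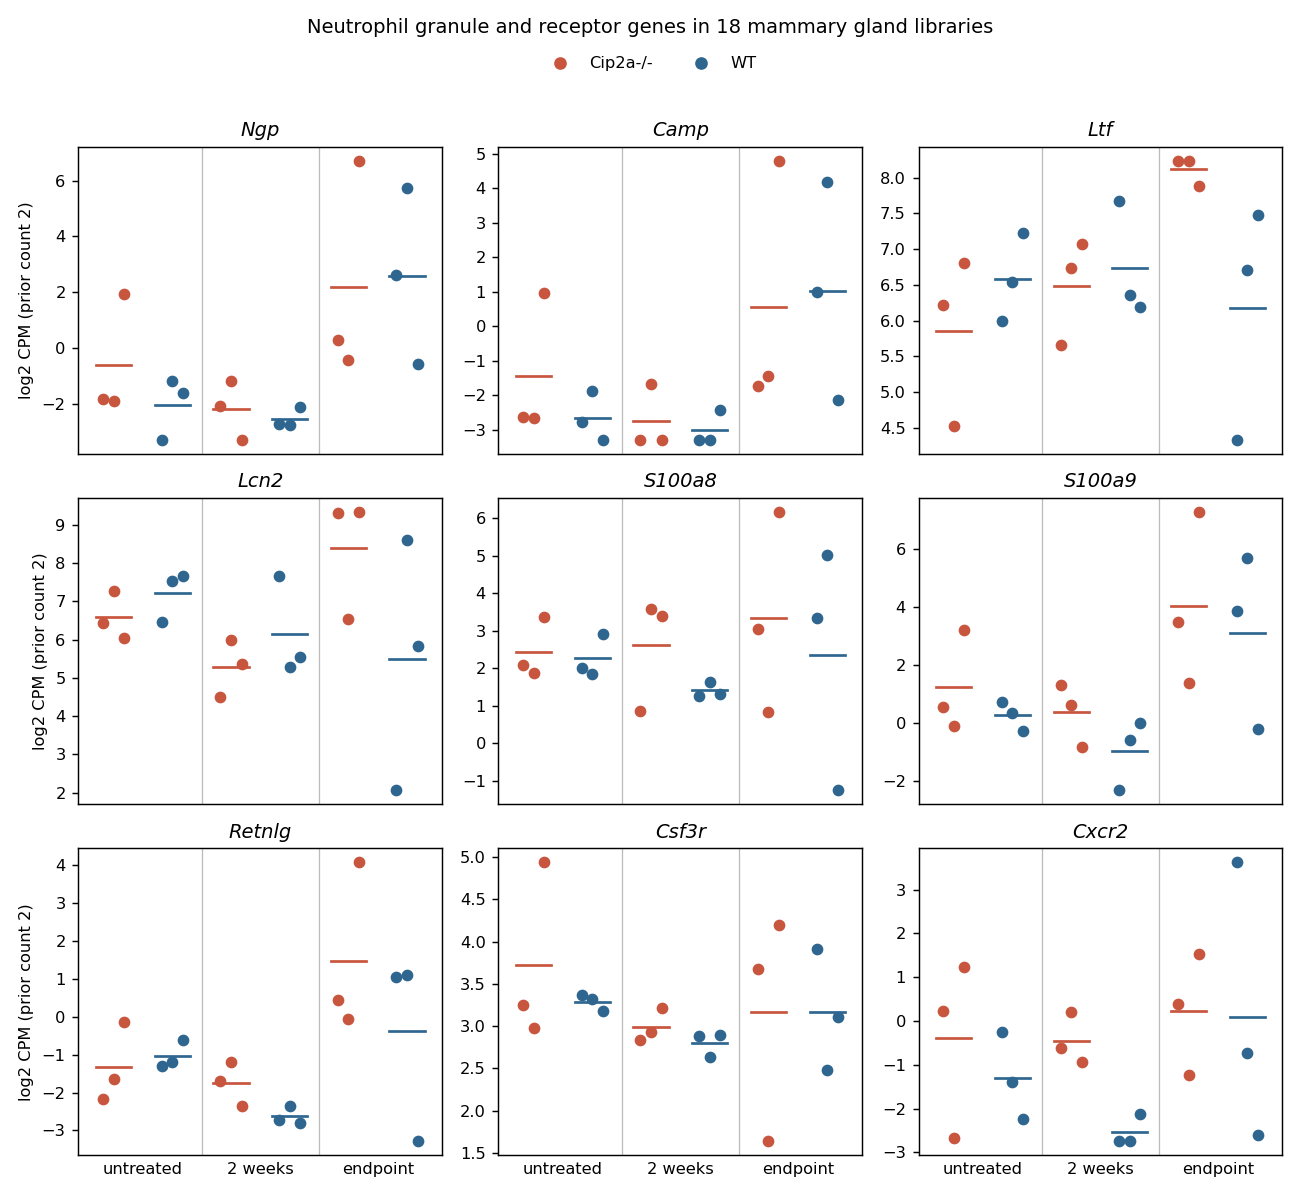
Level of each gene in the 18 libraries, as log2 CPM with a prior count of 2 on the vertical axis; points are libraries, replicates 1 to 3 from left to right, and lines are group means, with Cip2a-/- left of WT at each time. The Ngp, Camp and S100a9 panels share 2 high endpoint glands, Cip2a-/- replicate 3 and WT replicate 2, while Ltf is high in all 3 Cip2a-/- endpoint glands. The genotypes were not separated in Ltf by edgeR's test.

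Levels of different genes were compared per kilobase of exon. The median over the 18 glands was 33.3 CPM per kb for Lcn2 and 30.6 CPM per kb for Ltf, well above the other genes. It was 5.78 for S100a8, 2.70 for S100a9 and 2.42 for Csf3r, and 0.538 for Retnlg, 0.228 for Ngp, 0.151 for Cxcr2 and 0.139 for Camp, all as CPM per kb. In Cip2a-/- endpoint glands, the mean was 108 ± 165 CPM per kb for S100a9 and 29.0 ± 49.0 for Ngp (SD, n = 3), so the spread within the group exceeded the mean.

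The glands taken at the endpoint were set against those taken 2 weeks after the last dose, averaged over the genotypes. Endpoint mice were killed because of a tumour, at an age the labels do not state. In comparisons with the endpoint, time after DMBA, age and tumour bearing therefore cannot be told apart. The sample numbers in the labels are all higher for the 2-week glands than for the untreated and endpoint glands. What these numbers stand for is not stated. A difference in when or how the 2-week glands were collected or handled therefore cannot be told apart either. Of the 9 genes, 5 rose and none fell by edgeR's quasi-likelihood test with Benjamini-Hochberg adjustment over 15482 genes (adjusted p under 0.05), where 13.4% of all genes passed and 6.41% passed as higher. The median log2 fold change was 3.39 over the 9 genes and 0.05 over all genes tested. The 9 genes all passed the low-count filter. It asked for 0.55 CPM, or 10 reads at the median library size, in 3 libraries. Outside the endpoint, Ngp and Camp reached that level in 1 library and Retnlg in 2. These 3 genes therefore passed the filter only through the endpoint glands, where they are high, so the count of 5 is no support for the list as a whole. S100a9 and Cxcr2 reached it in 10 and 4 libraries outside the endpoint. With no low-count filter, 4 genes were called, all but Cxcr2 of the 5.

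Ngp was higher by 7.83 ± 1.68 on the log2 scale (± SE throughout; edgeR adjusted p = 0.0118) and Camp by 7.16 ± 1.72 (edgeR adjusted p = 0.0182). S100a9 was higher by 5.36 ± 1.17 (edgeR adjusted p = 0.0123). Retnlg was higher by 4.59 ± 0.99 (edgeR adjusted p = 0.0121). Cxcr2 was higher by 3.39 ± 1.07 (edgeR adjusted p = 0.0497), at the edge of the threshold. The genes that did not pass had positive values, 2.04 ± 0.79 for Lcn2 (edgeR adjusted p = 0.0993), 2.11 ± 0.89 for S100a8 (0.125), 0.64 ± 0.48 for Ltf (0.395) and 0.49 ± 0.41 for Csf3r (0.432). Among the 9 genes only Ngp had all 6 endpoint glands above all 6 glands at 2 weeks, as did 2.67% of all genes.

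These calls rested unequally on single glands. Without both endpoint glands with the highest Ngp, a choice made after the values were seen, Ngp (edgeR adjusted p = 0.0435), S100a9 (0.0444) and Retnlg (0.0385) still passed, and Camp (0.121) and Cxcr2 (0.0678) did not. Each value was then lower than with all glands, 3.86 for Ngp, 3.16 for Camp, 3.06 for S100a9, 3.07 for Retnlg and 3.21 for Cxcr2 on the log2 scale. Without Cip2a-/- endpoint replicate 3 alone, 3 genes passed, again Ngp, S100a9 and Retnlg, at 5.17, 3.83 and 3.30, and Cxcr2 did not pass without WT endpoint replicate 1 (0.226). DESeq2 called 7 of the 9 genes, adding Lcn2 and S100a8, where it called 19.3% of all genes. Over 20 alternative settings, Ngp, S100a9 and Retnlg passed in all 20, Camp in 15, Cxcr2 in 6, Lcn2 in 3, S100a8 in 1 and Ltf and Csf3r in 0.

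**Figure D2:**
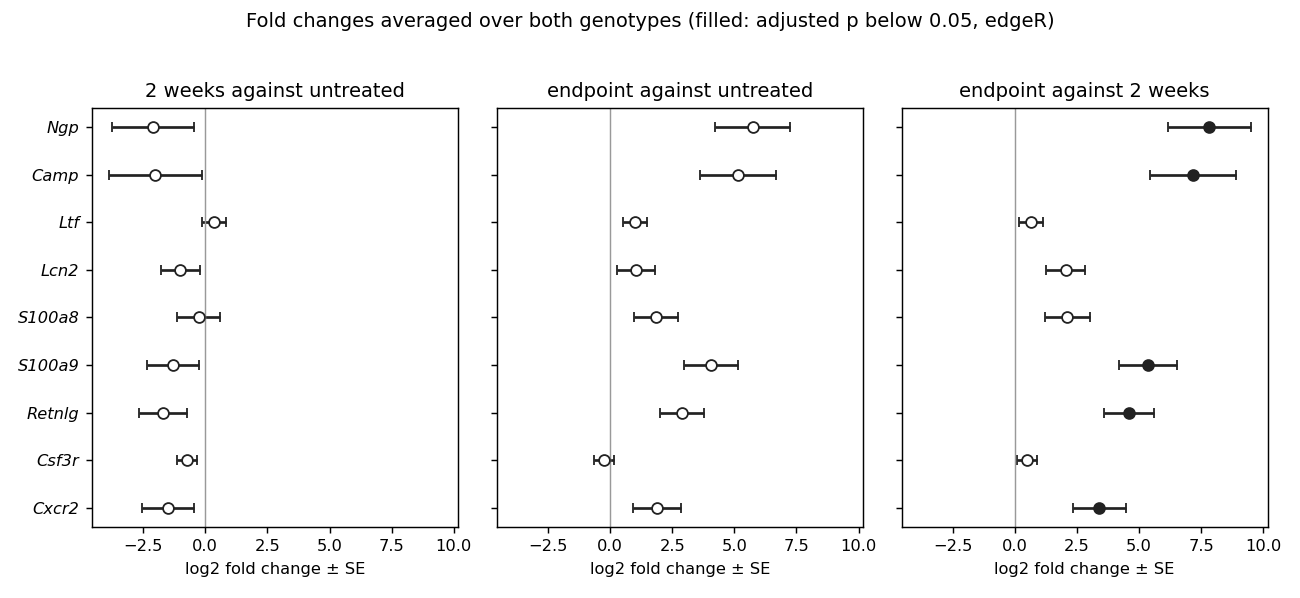
Fitted log2 fold change of each gene with its SE (horizontal axis) in 3 comparisons averaged over the genotypes; filled points passed edgeR's test and open points did not. Only the comparison of endpoint with 2 weeks has filled points, for Ngp, Camp, S100a9, Retnlg and Cxcr2.

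Set against untreated glands instead, the same endpoint libraries gave 0 calls among the 9 genes by edgeR, where 0.252% of all genes passed. The values were 5.73 ± 1.49 for Ngp (edgeR adjusted p = 0.102), 5.16 ± 1.53 for Camp (0.126), 4.08 ± 1.09 for S100a9 (0.107) and 2.88 ± 0.89 for Retnlg (0.137). These 4 genes had an unadjusted p under 0.05, as did 16.9% of all genes, and DESeq2 called the same 4, where it called 5.14% of all genes. The other values were 1.90 ± 0.97 for Cxcr2, 1.86 ± 0.88 for S100a8, 1.04 ± 0.77 for Lcn2, 0.99 ± 0.49 for Ltf and -0.25 ± 0.40 for Csf3r, none past the threshold. Within the genotypes, edgeR called 0 of the 9 genes in Cip2a-/- (0% of all genes; unadjusted p under 0.05 in 4 of the 9 and in 14.6% of all). It also called 0 in WT (0.0323% of all genes; unadjusted p under 0.05 in 4 of the 9 and in 12% of all). DESeq2 called Retnlg in Cip2a-/-, with 1.64% of all genes, and Ngp and S100a9 in WT, with 1.97% of all genes.

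Between 2 weeks and untreated glands, 8 of the 9 genes had negative values averaged over the genotypes and none passed. The values lay between -2.10 ± 1.65 for Ngp and 0.36 ± 0.48 for Ltf, the lowest edgeR adjusted p was 0.753, for Csf3r at -0.75 ± 0.41, and 0.0258% of all genes passed. Before adjustment, 0 of the 9 and 6.57% of all genes were under 0.05. DESeq2 called none of the 9 genes there or within a genotype. Within Cip2a-/- 0.0129% of all genes passed in edgeR (4.53% unadjusted), within WT 0% (4.23% unadjusted), and the 9 genes gave 0 calls and 0 unadjusted ones in both. The untreated gland with high Krt10 carried the highest untreated level of Ngp, Camp, S100a8, S100a9, Retnlg, Csf3r and Cxcr2, and also that of the B cell, T cell and monocyte and macrophage lists. The part of these cells in its levels was not tested.

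Cip2a-/- glands were not separated from WT glands in any of the 9 genes by edgeR or DESeq2 at any time. In untreated glands, edgeR passed 0% of all genes (2.27% at an unadjusted p under 0.05). At 2 weeks it passed 0.00646% of all genes (2.44% unadjusted), at the endpoint 0.00646% (10.7% unadjusted), and averaged over the conditions 0.00646% (0.917% unadjusted). The 1 gene behind each of those last 3 shares was Cip2a itself. In untreated glands even Cip2a did not pass, at -5.00 ± 0.74 (unadjusted p = 3.98e-05, edgeR adjusted p = 0.568). None of the 9 genes had an unadjusted p under 0.05 by edgeR in these 4 comparisons, and by DESeq2 1 of them did in each but the untreated one. The value nearest to the threshold was that of Ltf at the endpoint, 1.47 ± 0.69 (unadjusted p = 0.0527, edgeR adjusted p = 0.462), where all 3 Cip2a-/- glands were above all 3 WT glands, as in 2.26% of all genes. Lcn2 had 1.62 ± 1.11 (edgeR adjusted p = 0.559) and Retnlg 2.22 ± 1.18 (0.491) at the endpoint, and the Retnlg value was -0.35 without Cip2a-/- replicate 3. The median over the 9 genes was 0.94 at the endpoint and -0.02 over all genes.

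Whether DMBA acted differently in Cip2a-/- than in WT glands was tested as an interaction. None of the 9 genes passed at 2 weeks (edgeR adjusted p = 0.999 for each), where 0% of all genes passed and 2.9% had an unadjusted p under 0.05. None passed at the endpoint either (lowest edgeR adjusted p = 0.50), where 0% of all genes passed and 10% had an unadjusted p under 0.05. By edgeR, 0 of the 9 genes had an unadjusted p under 0.05 in either interaction, and DESeq2 called 0 in both, with 0 and 1 unadjusted. A group of 3 glands with this spread leaves wide errors, so a missed threshold does not show that the genotypes were alike.

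Over the 18 glands, the 9 genes fell into those that varied with Ngp and those that did not. Of the 36 pairs, 17 had a Pearson correlation of log2 CPM past an adjusted p of 0.05 (permutation test with 100000 resamples, two-sided, adjusted over the 36 pairs). Ngp and Camp were closest, with r = 0.980 (permutation p = 1e-05, the smallest these resamples can give, adjusted 7.2e-05) and Spearman's rho = 0.885 (permutation p = 2e-05, adjusted 0.00054). Without WT endpoint replicate 2 and Cip2a-/- endpoint replicate 3, the glands farthest from the median, r was 0.933. Ngp and S100a9 had r = 0.931 (permutation p = 1e-05, adjusted 7.2e-05) and rho = 0.770 (permutation p = 0.0004, adjusted 0.0024), and r = 0.824 without the same glands. S100a9 and Retnlg had r = 0.913 (permutation p = 1e-05, adjusted 7.2e-05) and rho = 0.829 (permutation p = 6e-05, adjusted 0.00072), and r = 0.827 without them. Among the glands then left, Camp had 30 reads in WT endpoint replicate 1, 32 in Cip2a-/- untreated replicate 3 and at most 5 in any other. The r of 0.933 for Ngp and Camp thus leans on those glands, which also stood apart in markers of other cell types.

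S100a8 had its highest r with Retnlg, not with its partner S100a9. S100a8 and Retnlg had r = 0.788 (permutation p = 0.00014, adjusted 0.00072) and rho = 0.626 (permutation p = 0.00636, adjusted 0.0213), and r = 0.591 without WT endpoint replicate 3 and Cip2a-/- endpoint replicate 3. Ngp and S100a8 had r = 0.677 (permutation p = 0.0017, adjusted 0.00556) and rho = 0.426 (permutation p = 0.0784, adjusted 0.157), and r fell to 0.244 without the 2 glands with the highest Ngp, so that relation rests on them. S100a8 and S100a9 had r = 0.715 (permutation p = 0.00082, adjusted 0.00328) and rho = 0.461 (permutation p = 0.0563, adjusted 0.119), and r = 0.611 without WT endpoint replicate 3 and Cip2a-/- endpoint replicate 3.

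Cxcr2 varied with the Ngp group as well, although its highest gland was another. With S100a9 it had r = 0.707 (permutation p = 0.00124, adjusted 0.00446) and rho = 0.808 (permutation p = 0.00014, adjusted 0.00126), and r = 0.835 without the 2 glands with the highest Ngp. With Retnlg it had r = 0.666 (permutation p = 0.003, adjusted 0.0090) and rho = 0.647 (permutation p = 0.00449, adjusted 0.0187), and r = 0.715 without the same glands. Its pairs with Ngp, Camp, S100a8 and Csf3r also passed, with r from 0.568 to 0.605 and rho from 0.560 to 0.647.

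Ltf and Lcn2 went with each other and not with Ngp. Ngp and Ltf had r = 0.145 (permutation p = 0.566, adjusted 0.657; rho = 0.319, permutation p = 0.194, adjusted 0.304; r = -0.07 without the 2 farthest glands). Ngp and Lcn2 had r = 0.302 (permutation p = 0.220, adjusted 0.317; rho = 0.375, permutation p = 0.127, adjusted 0.228; r = -0.26 without them). Ltf and Lcn2 had r = 0.610 (permutation p = 0.00736, adjusted 0.0204) and rho = 0.546 (permutation p = 0.0207, adjusted 0.0533), and r = 0.601 without Cip2a-/- untreated replicate 2 and WT endpoint replicate 1. With group means subtracted, 7 of the 36 pairs passed, and without Cip2a-/- endpoint replicate 3, 9 passed.

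**Figure D3:**
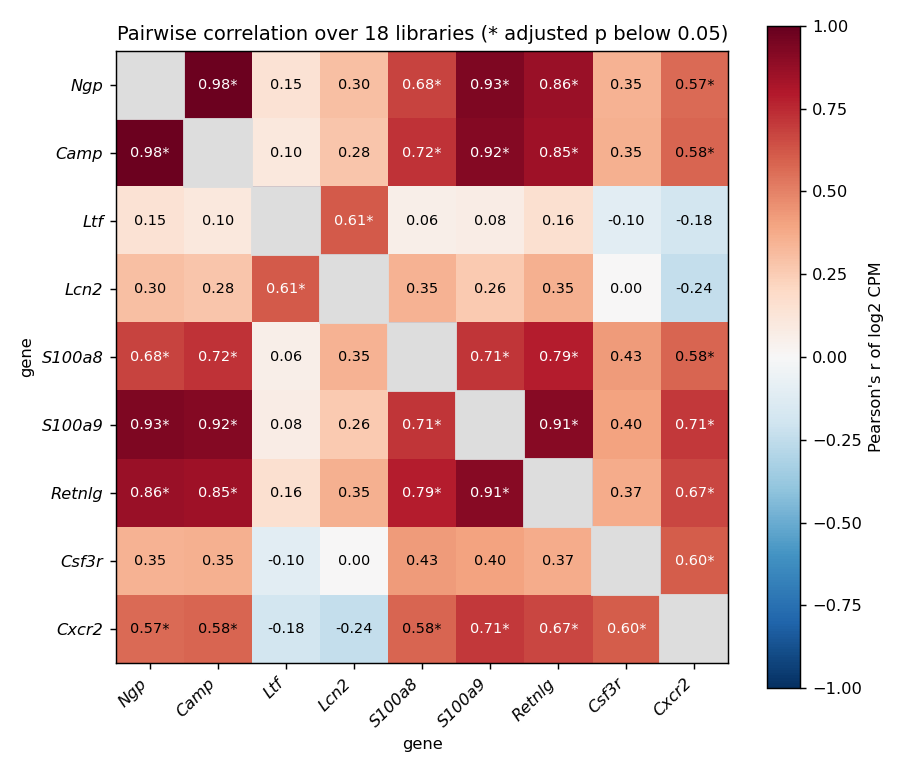
Pearson's r of log2 CPM for each pair of the 9 genes over 18 libraries, as colour from -1 to 1 with the value in each cell; stars mark an adjusted permutation p under 0.05. Ngp, Camp, S100a9 and Retnlg form a block with r from 0.846 to 0.980, and Ltf and Lcn2 stand outside it with r = 0.610 to each other.

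The genes were also set against the mean level of 9 marker lists of other cell types, 81 relations in all, of which 15 passed. This set was added after the values were seen. Lcn2 followed luminal epithelium markers such as Epcam and Krt8, with r = 0.877 (permutation p = 2e-05, adjusted 0.00162), rho = 0.781 (permutation p = 0.00032, adjusted 0.0259) and r = 0.770 without Cip2a-/- and WT endpoint replicates 1. Lcn2 also passed with milk markers, at r = 0.648 (permutation p = 0.00324, adjusted 0.0372) and rho = 0.668 (adjusted 0.0818). With skeletal muscle markers it had r = -0.613 (permutation p = 0.00551, adjusted 0.0372) and rho = -0.589 (adjusted 0.191). Without the 2 glands farthest from the median of each list, r was 0.512 for milk and -0.429 for muscle. Csf3r followed monocyte and macrophage markers, with r = 0.780 (permutation p = 0.00038, adjusted 0.0154), rho = 0.569 (permutation p = 0.0149, adjusted 0.201), and r = 0.388 without Cip2a-/- untreated replicate 3 and Cip2a-/- endpoint replicate 2, so that relation rests on those glands. Cxcr2 followed B cell markers, with r = 0.640 (permutation p = 0.0043, adjusted 0.0372) and rho = 0.503 (permutation p = 0.036, adjusted 0.305). Without Cip2a-/- untreated replicate 3 and WT endpoint replicate 1, r was 0.356, so it too rests on single glands, unlike its relation with S100a9. Relations with T cell markers for Cxcr2 (r = 0.636; 0.272 without the same glands) and with B cell markers for Csf3r (r = 0.595; 0.376) passed as well. White fat markers went against 5 of the genes, with r of -0.69 for Ngp and for Retnlg, -0.68 for Camp, -0.67 for S100a9 and -0.66 for Cxcr2 (adjusted permutation p from 0.0372 to 0.0425). Their rho lay between -0.46 and -0.36, none past the threshold, and r between -0.40 and -0.10 without Cip2a-/- endpoint replicate 3 and WT endpoint replicate 1, so these relations rest on those glands. Summed over 7 genes, white fat markers had 22100, 25632 and 8193 CPM in Cip2a-/- endpoint glands and 6864, 15932 and 56236 CPM in WT endpoint glands, against 12498 to 21371 CPM in the untreated and 2-week glands. Of the 2 glands with the highest Ngp, the Cip2a-/- one was thus below that range and the WT one within it. Whether fat content moves these genes' levels was not tested. Ngp, Camp, S100a9 and Retnlg varied together, with Cxcr2 more loosely tied to them. Lcn2 went with epithelial and milk markers and against skeletal muscle markers. Ngp, Camp and Retnlg passed the low-count filter only through endpoint glands, so their varying together is no check of the neutrophil label. Whether epithelial or muscle content sets the level of Lcn2 was not tested.

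**Figure D4:**
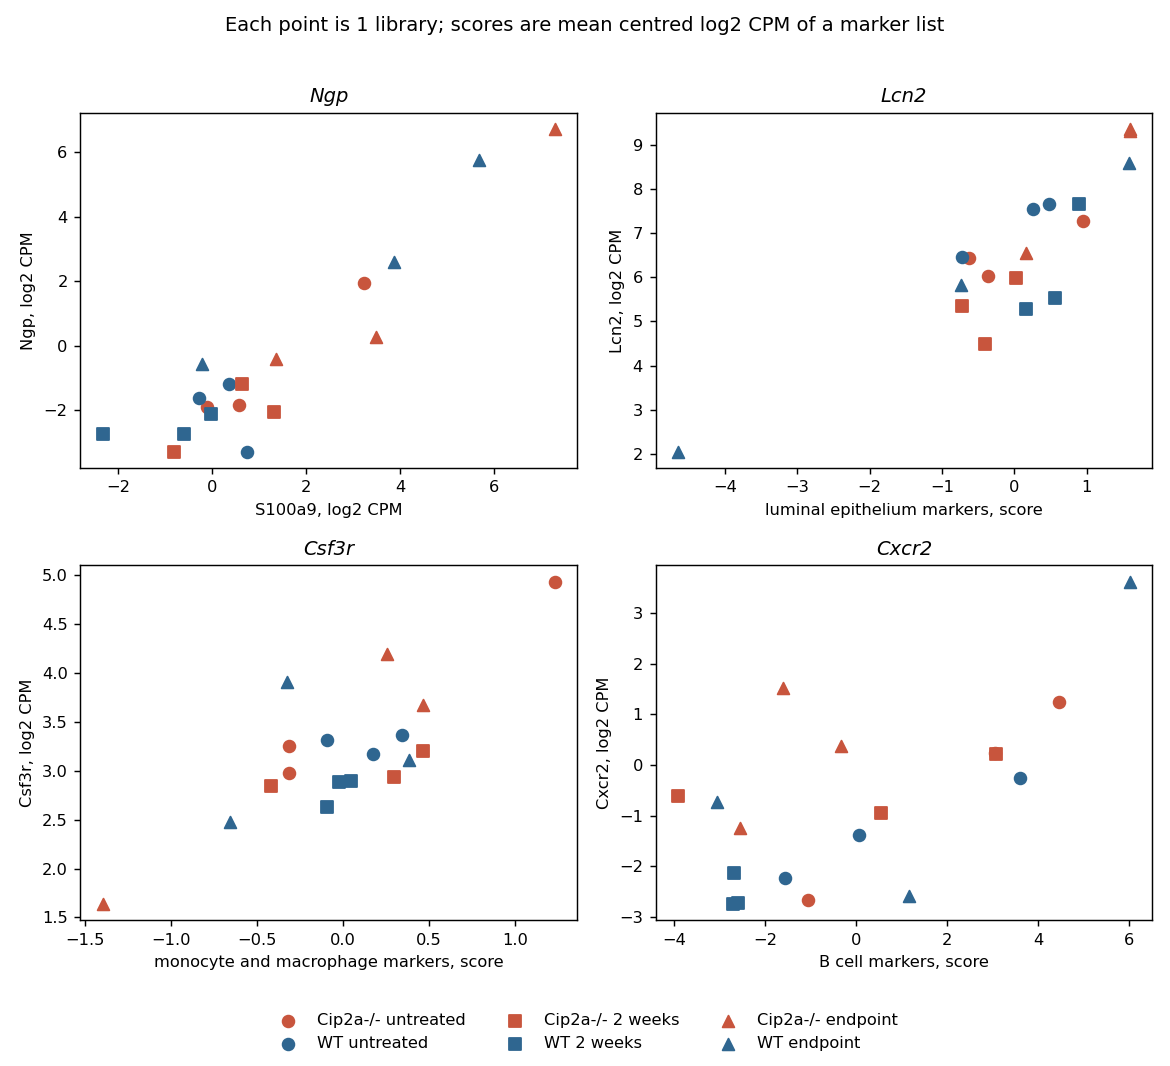
Level of Ngp, Lcn2, Csf3r and Cxcr2 (log2 CPM, vertical axes) against S100a9 or the score of a marker list (horizontal axes), where a score is the mean of log2 CPM centred on each gene's mean over the 18 libraries; each point is 1 library. Ngp rises with S100a9 over all glands, and the lowest Lcn2 is in the WT endpoint gland with the lowest luminal score.

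For each of the 9 genes, the genes with the highest Pearson r of log2 CPM over the 18 libraries, among 15482 tested and outside the 9, are given as a description. Nearest to Ngp were Sat1 (r = 0.913), a polyamine acetyltransferase, Chi3l3 (0.902), a chitinase-like protein of macrophages and neutrophils, and Mmp8 (0.896), the neutrophil collagenase. Chi3l3 (0.918) and Mmp8 (0.897) were also nearest to S100a9, followed by the ribosomal protein gene Rpl39 (0.891). Nearest to Retnlg were the chemokine gene Ccl17 (0.930), Mmp8 (0.904) and the adhesion molecule gene Icam1 (0.871). Camp was nearest to Dbr1 (0.893), Sat1 (0.893) and Snrpb2 (0.892), which encode an RNA lariat debranching enzyme, the acetyltransferase and a splicing protein. Nearest to Lcn2 were Rac3 (0.967), Cd14 (0.956) and Fxyd3 (0.952). Those of Csf3r were Igsf6 (0.898), Tyrobp (0.878), a signalling adaptor of myeloid cells, and Sfpi1 (0.849), the older symbol of the gene for PU.1. The highest values were lower for Cxcr2 (Mcl1, 0.853, Aim2, 0.844, and Slc44a2, 0.834), S100a8 (Arhgef4, 0.839, Cyp2s1, 0.822, and Lpcat2, 0.805) and Ltf (1810010H24Rik, 0.813, Cxx1c, 0.794, and Bcr, 0.792).

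Other neutrophil genes were read from lists of primary granule, other granule and maturation, receptor, ligand, factor and acute phase genes, in the comparison of endpoint with 2 weeks. Of 5 primary granule genes tested, 2 rose and none fell (median 1.57), where 13.4% of all genes passed and 6.41% rose. Mpo, myeloperoxidase, was higher by 6.02 ± 1.60 (edgeR adjusted p = 0.0265), with 0.0501, 0.107 and 16.3 CPM in Cip2a-/- endpoint glands and 0.0634, 3.25 and 0.822 CPM in WT endpoint glands. It had at most 0.127 CPM in the glands at 2 weeks and passed the low-count filter only through endpoint glands, where it is high. Elane, neutrophil elastase, was higher by 1.97 ± 0.61 (0.0462), with 1.60, 1.67 and 6.86 CPM in Cip2a-/- endpoint glands and 0.317, 2.71 and 6.70 CPM in WT endpoint glands, against 0.508 to 1.23 CPM at 2 weeks. Both calls were fragile: no primary granule gene passed when Cip2a-/- endpoint replicate 3 or any single one of the 6 glands at 2 weeks was left out, or when only the compared groups were fitted. Over 20 alternatives, Mpo passed in 11 and Elane in 7.

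Of 18 other granule and maturation genes tested, 5 rose and none fell (median 0.85), where 13.4% of all genes passed and 6.41% rose. Mmp8 was higher by 3.70 ± 1.05 (edgeR adjusted p = 0.0335), with 0.602, 0.107 and 3.87 CPM in Cip2a-/- endpoint glands and 1.01, 0.851 and 0.0632 CPM in WT endpoint glands, against at most 0.127 CPM at 2 weeks, and it too passed the filter only through endpoint glands. Chi3l3 was higher by 3.07 ± 0.79 (0.0233), with 3.56, 1.83 and 27.5 CPM in Cip2a-/- endpoint glands and 2.53, 10.3 and 0.632 CPM in WT endpoint glands. Cd177, a neutrophil surface glycoprotein, was higher by 3.37 ± 1.00 (0.0393), Pglyrp1, a peptidoglycan recognition protein of granules, by 2.01 ± 0.58 (0.036), and Hdc, the histamine-forming enzyme, by 2.23 ± 0.48 (0.0117). Cip2a-/- endpoint replicate 3 was the highest of the 18 glands in Mmp8, Chi3l3, Cd177 and Hdc, but not in Pglyrp1. Without it, 1 of 18 passed, Hdc, which was also the only call without WT 2-week replicate 1 or 3, and none passed when only the compared groups were fitted. With all glands kept, DESeq2 called 10 of 26, and 19.3% of all genes.

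Receptors, ligands and factors gave few calls. Of 13 other neutrophil receptors tested, none passed (median 0.43), and the largest values were 1.84 ± 0.84 for the formyl peptide receptor gene Fpr1 (edgeR adjusted p = 0.157) and 1.60 ± 0.62 for Clec4e (0.0999). Of 6 ligands tested, none passed (median 0.47), with 1.74 ± 0.73 for the cytokine gene Il1b (0.123) and -0.84 ± 0.44 for the platelet chemokine gene Pf4 (0.213). The Cxcr2 ligand gene Cxcl5 had 6.17 CPM in the Cip2a-/- endpoint gland with high Csn2 and at most 0.111 CPM elsewhere. Csf3, which encodes the ligand of Csf3r, had 5.87, 3.81 and 8.35 CPM in Cip2a-/- endpoint glands and 0.253, 5.88 and 1.26 CPM in WT endpoint glands. It had 2.12, 2.84 and 1.72 CPM in Cip2a-/- glands at 2 weeks and 0.674, 1.49 and 5.34 CPM in WT glands at 2 weeks, so it was highest in the 2 glands with the highest Ngp and nearly as high in others. Of 8 granulocyte factors, 1 rose (median 0.47), a share near the 13.4% of all genes that passed. It was Cebpd, a C/EBP factor, which was higher by 1.57 ± 0.31 (edgeR adjusted p = 0.00931), with 43.1, 63.5 and 172 CPM in Cip2a-/- endpoint glands and 17.2, 33.9 and 58.2 CPM in WT endpoint glands. It had 21.8, 21.3 and 24.8 CPM in Cip2a-/- glands at 2 weeks and 18.1, 16.5 and 16.2 CPM in WT glands at 2 weeks. Cebpe, the C/EBP factor required for secondary granules, had 1.09 ± 0.97 (0.470). Of 7 acute phase genes none passed (median -0.28), with -1.42 ± 0.71 for Orm1 (0.194) and -1.21 ± 0.56 for Lbp (0.160). None of these list genes passed in the comparison of endpoint with untreated glands averaged over the genotypes.

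Red cell genes moved with Ngp in the same glands. Of 6 erythroid genes tested, 5 rose in the comparison of endpoint with 2 weeks (median 2.86), where 6.41% of all genes rose. Alas2, the first enzyme of red cell haem synthesis, was higher by 3.07 ± 0.80 (edgeR adjusted p = 0.0239). Alas2 had 23.0, 67.9 and 1513 CPM in Cip2a-/- endpoint glands and 28.1, 224 and 108 CPM in WT endpoint glands, against 18.1 to 58.3 CPM at 2 weeks. The beta-globin gene Beta-s was higher by 2.66 ± 0.79 (0.0394), and Slc4a1, the anion exchanger of the red cell membrane, by 5.33 ± 1.38 (0.0235). The 2 alpha-globin genes on the list were at 0 reads in all 18 libraries. Over the 18 glands the erythroid score had r = 0.779 with Ngp (permutation p = 0.00104, adjusted 0.0266) and rho = 0.508 (permutation p = 0.0334, adjusted 0.305), and r = 0.271 without the 2 glands with the highest Ngp. It also passed with Camp (r = 0.779) and S100a9 (r = 0.734), each at an adjusted permutation p of 0.0266. Without the same 2 glands, r was 0.222 for Camp and 0.210 for S100a9, and neither rho passed. No erythroid gene passed without Cip2a-/- endpoint replicate 3, where Alas2 had 1.29 (edgeR adjusted p = 0.0880), Beta-s 0.93 (0.230) and Slc4a1 1.89 (0.173), nor without WT 2-week replicate 1 or 2, nor when only the compared groups were fitted. The part of blood or marrow-type cells in the Ngp, Camp, Mpo and Alas2 levels of these glands was not tested.

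Among markers of other white cells, Ccr2 and Mrc1, a chemokine receptor of monocytes and a mannose receptor of macrophages, fell by 1.56 ± 0.41 (edgeR adjusted p = 0.0264) and by 1.20 ± 0.38 (0.0495), and the other 8 of 10 monocyte and macrophage genes did not pass. Of the 10, 7 had positive values (median 0.27), so these 2 went against most of their list, and 13.4% of all genes passed. Over 20 alternatives, Ccr2 passed in 12 and Mrc1 in 5. The eosinophil peroxidase gene Epx was at or near 0 in every gland. None of 7 B cell, 8 T cell, 10 luminal epithelium, 7 milk, 8 epidermis, 7 white fat or 7 skeletal muscle genes passed, and of 5 brown fat genes Elovl3 rose.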

How the data were processed

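Poly(A) RNA from 18 mammary gland samples was sequenced after TruSeq Stranded mRNA preparation, per the labels' protocols. Per the submitters' processing notes, bcl2fastq 2.17, STAR 2.5.2b, Subread 1.5.1 and mm10 were used; for annotation and strand setting, the sources used here name none. The deposited table holds whole-number counts per gene, not normalized by the authors. Counts were tested with edgeR 4.0.16 (TMM, filterByExpr with a minimum of 10, 1 term per group, quasi-likelihood F-test, adjusted over 15482 genes). The SE is the log2 fold change divided by the square root of F. CPM uses TMM-scaled library sizes, and correlations use log2 CPM with a prior count of 2. Tests were tried on simulated data. DESeq2 1.42.0, RLE scaling, other filters, a replicate block and leaving out libraries were alternatives. The 9 genes and all lists were chosen with earlier results of these data known. Named beside them were list genes that passed, the 2 with the largest change per neutrophil list, and the 3 genes of highest r with each. Intervals and floors cover counting error only; 3 reads is the limit taken for a count of 0. Some genes of the marker lists that were tested are not reported here by name.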

Additional observations from a re-analysis of the deposited data

How the results depend on the processing

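With 3 glands a group and 2 endpoint glands holding most reads of Ngp and Camp, errors were wide, and genes with few reads at 2 weeks have fold changes that depend on the fit. DESeq2 called 2 of the 9 genes in WT endpoint against untreated, 1 in Cip2a-/- endpoint against untreated and 4 averaged over the genotypes, where edgeR called 0; the cause was not tested. For endpoint against 2 weeks, 3 genes passed when only the compared groups were fitted and 3 without both endpoint glands with the highest Ngp (fewer samples). Leaving out 1 library gave 3 to 5, and 3 came without WT 2-week replicate 2, WT 2-week replicate 3 or Cip2a-/- endpoint replicate 3. Of 36 pairs, 7 passed with group means subtracted, and leaving out 1 library gave 9 to 21, the 9 without Cip2a-/- endpoint replicate 3. Signs changed in endpoint against untreated for Lcn2 (-0.11 to 1.32 with 1 library left out, lowest without WT endpoint replicate 2; -0.28 without both high glands), S100a8 (-0.11 without both), Csf3r (-0.51 to 0.19, positive without Cip2a-/- untreated replicate 3) and Cxcr2 (-0.0268 to 2.40, lowest without WT endpoint replicate 1). They also changed for S100a8 in 2 weeks against untreated (-0.45 to 0.058, positive without Cip2a-/- untreated replicate 3, and 0.058 without both glands with off-tissue markers) and for Retnlg between genotypes at the endpoint (-0.35 to 2.74, lowest without Cip2a-/- endpoint replicate 3); the cause was not tested. Over all 13 comparisons, 125 of 1910 values under alternatives changed sign, 0 of them in endpoint against 2 weeks. Replicate numbers did not pair the glands (17 of 45 same-number correlations over 0.1); with a replicate block, 4 of the 9 genes passed in endpoint against 2 weeks, all but Cxcr2 of the 5.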
